A study of Mus musculus with 8 samples.

Results

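Transcripts of 45 genes of mitosis and the spindle were followed in the mouse neural crest precursor line JoMa1 and in lines grown from tumours that MYCN-transfected JoMa1 cells formed in mice. MYCN is the MYC family oncogene amplified in high-risk neuroblastoma. The genes were listed by name, and every probe set that the platform annotation pairs with one of those symbols alone was taken. This gave 105 of the 34945 probe sets with a single gene symbol, and 45 of the 18193 genes measured. The 8 arrays were 3 of parental JoMa1, 1 that the labels give as a GFP-transfected JoMa1 control, and 4 of tumour-derived lines, numbered 3 to 6 by their titles. All were harvested from culture at 80% confluency. The labels call the 4 tumours independent and their hosts immunocompromised mice. Whether the parental arrays stem from separate cultures is not said there, so p-values measure the spread between these arrays, which may be technical in part. JoMa1 is known to carry a tamoxifen-activated MYC fusion, and the labels do not state the tamoxifen conditions of any group.

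Entry into mitosis is driven by cyclin-dependent kinase 1 with A- and B-type cyclins, helped by the CDC25 phosphatases and the Polo-like and Aurora kinases. Chromosomes then attach to spindle microtubules through kinetochores, while the spindle assembly checkpoint holds back the anaphase promoting complex until every kinetochore is attached. Most of these genes are transcribed mainly in G2 and M phase, so in a growing culture their transcripts track how many cells are dividing. Many are known targets of the DREAM and MuvB-MYBL2-FOXM1 complexes, which reach their promoters through an element called the CHR and work together with CCAAT boxes.

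Values are the authors' RMA levels on the log2 scale, where 1 unit is a 2-fold change, and errors after ± are SDs between arrays. Array medians lay between 6.26 and 6.30. Bacterial trpnX probe sets, which should see no mouse transcript, read 3.84 to 4.04. The brightest Mycn probe set read 7.42 ± 0.12 in parental arrays and 14.17 ± 0.08 in tumour lines. It read 11.73 on the array labelled GFP-transfected, which goes against that label, so directions drawn from that array carry this limit. The 3' minus 5' difference of Actb, which reflects RNA integrity, was 0.626 to 0.641 for parental cells and 0.516 to 0.613 for tumour lines, and that of Gapdh was 0.0525 to 0.0782 and 0.0922 to 0.151. The groups were thus apart in both, and the part of this in the results was not tested. Among neural crest markers, Snai2 (11.55 in parental arrays) and Pax3 (10.55) were bright, Sox10 (7.34) was intermediate, and Foxd3 (4.59) and Ngfr (5.40) were near the low end of the scale. Of the 17 such markers 4 fell and 3 rose in tumour lines (23.5% and 17.6%), shares near the 19.4% and 16.6% of all genes. Among them were Tfap2b (-5.20), Zic1 (-4.48), Pax3 (-1.17), Snai1 (1.14) and Msx1 (1.05). Limma called 3 of 15 leukocyte markers higher in tumour lines (20%, against 16.6% of all genes) and 0 lower (against 19.4%). These were Cd14, at 7.43 in parental cells and 9.26 in tumour lines (1.83, SE 0.15), Cd68 (0.80, SE 0.09) and Lyz2 (0.49, SE 0.10). The list's summed level was 81.8 to 83.6 for parental cells and 86.0 to 86.8 for tumour lines, where Ptprc (4.08), Itgam (4.13) and Adgre1 (4.58) were near background. The part of these markers in the results was not tested. Of 10 endothelial and 3 erythroid markers 0 were called by limma between tumour lines and parental arrays (0 and 1 at an unadjusted p under 0.05). Among all genes 36.0% were called either way. On the array labelled GFP-transfected the endothelial cadherin gene Cdh5 read 6.71, against 4.75 in both other groups, and was called against each.

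In tumour lines many of the mitotic transcripts were lower than in parental cells, by small amounts, while many others were not called and a few were higher. Of the 45 genes, 24 fell and 3 rose in limma at an adjusted p under 0.05, and 18 were not called. Among all 18193 genes, 19.4% were called lower and 16.6% higher (36.0% either way), so the 53.3% of these genes called lower stood above the background and the 6.67% called higher below it. The median difference was -0.28, against 0.01 over all genes. All 4 tumour lines lay below all 3 parental arrays for 26 of the 45 genes (57.8%, against 23.2% of all genes), and above them for 4 (8.89%, against 21.2%). A 2-fold change was reached by 3 called genes (6.67%, against 8.86% of all genes), namely the spindle checkpoint kinase genes Bub1b and Bub1 and the kinesin gene Kif20a. The rises were those of Birc5, Mad2l1 and Pttg1. In cell populations, fewer cells in mitosis and less of a transcript per mitotic cell cannot be told apart.

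**Figure D1:**
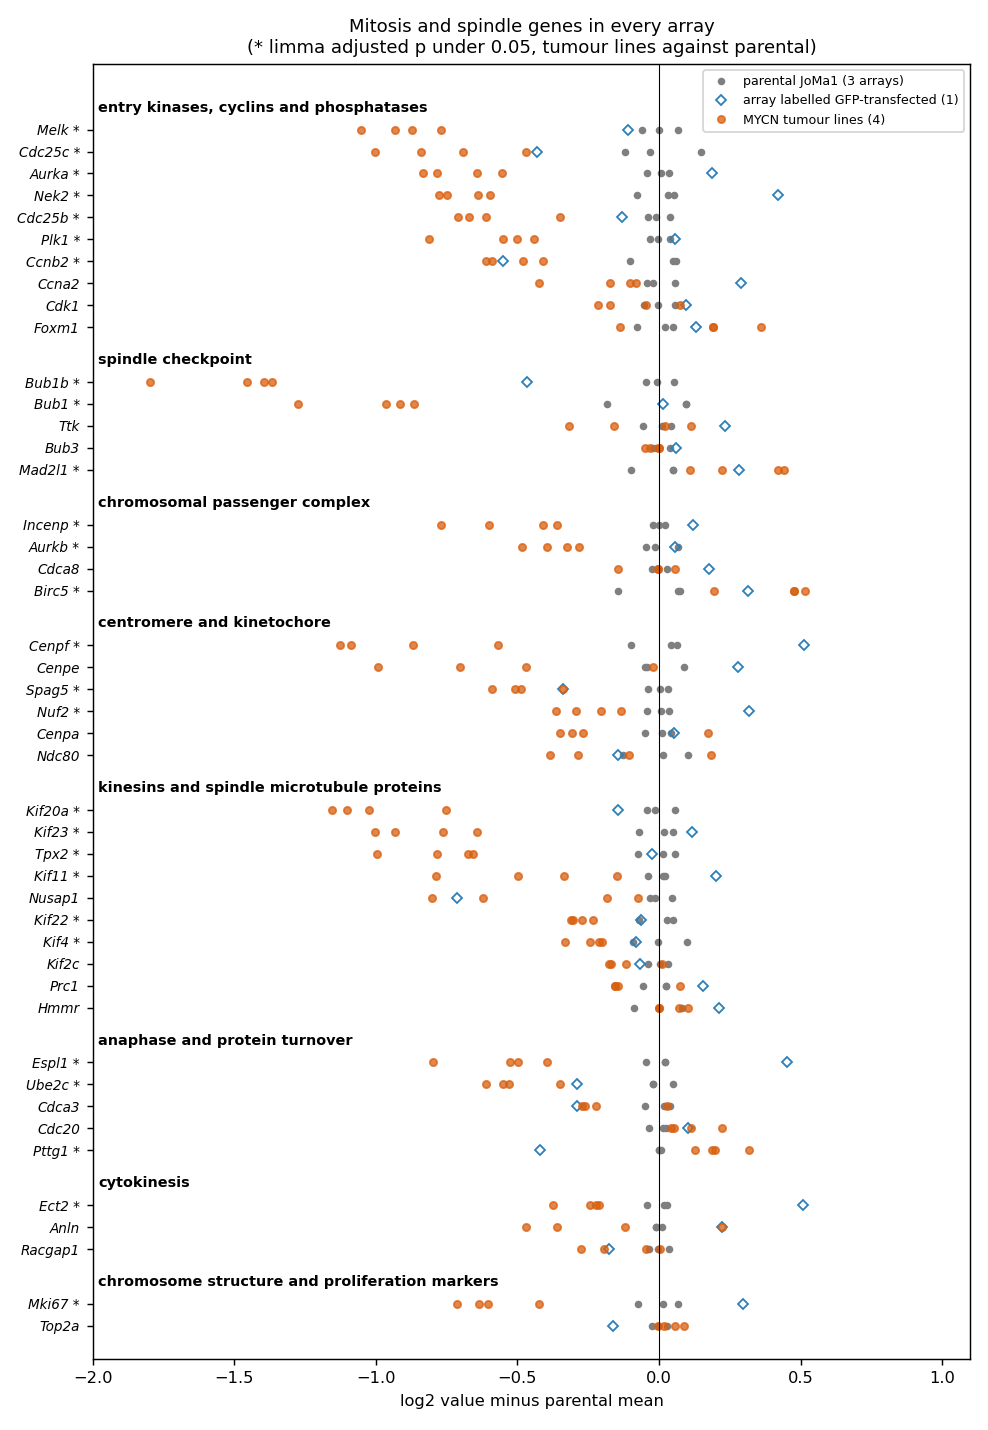
Log2 value of each array minus the parental mean (horizontal axis) for each of the 45 genes (rows, grouped by role), with grey points for the 3 parental arrays, open diamonds for the array labelled GFP-transfected and orange points for the 4 tumour lines. The orange points lie left of all grey points for 26 genes, farthest for Bub1b, and right of them for 4 genes.

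Each of the 4 tumour lines showed this. The median deviation of the 45 genes from the parental mean was -0.29 in tumour line 3, -0.27 in line 4, -0.38 in line 5 and -0.31 in line 6. The same median ran from -0.04 to 0.02 in the parental arrays, and was 0.06 on the array labelled GFP-transfected. Line 5 held the lowest value of the 4 lines for 22 of the 45 genes, and line 3 the highest for 19. Such ranks were not counted over all genes. The SD over tumour lines had a median of 0.141 for these genes and the SD over parental arrays one of 0.0485, and the tumour lines varied more for 41 of the 45. Over all genes these medians were 0.128 and 0.0796, and the share of genes varying more in tumour lines was not counted. As a group the genes were well expressed. Their median level lay at percentile 87.3 of all genes, with means over the 8 arrays from 8.95 (Foxm1) to 13.23 (Pttg1). Differences were smaller among the brightest: of 12 genes with a mean of at least 12, 5 were called and the median size of the difference was 0.192, whereas of the other 33 genes 22 were called, with a median size of 0.482.

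The promoters of the genes at both ends of this range are shown because the known control of mitotic genes runs through short promoter elements. Each window runs 5' to 3' from 250 bases before to 50 bases after an annotated transcript start, from RefSeq on GRCm38.p6. Capitals mark matches to the CHR core TTTGAA and to CCAAT, on either strand, so that they also appear as TTCAAA and ATTGG. Bub1b (chr2:118597961-118598260 on the plus strand), Bub1 (chr2:127831810-127832109 on the minus strand) and Cenpf (chr1:189688037-189688336 on the minus strand) had the largest falls among genes with a window shown here. Melk, next in size of fall, had a window with neither motif. Birc5 (chr11:117848987-117849286 on the plus strand), Mad2l1 (chr6:66534971-66535270 on the plus strand) and Pttg1 (chr11:43425932-43426231 on the minus strand) are the 3 genes that rose. The start used for Pttg1 lies 1482 bases inside the outer end of its gene model. Of the 41 windows of these genes 9 start over 100 bases inside, those of Kif2c (3852), Pttg1, Cdca3 (646), Cdc25b (512), Ect2 (399 and 375), Aurka (316), Bub3 (127, 1 of its windows) and Spag5 (121), and the motif counts include them.
Bub1b: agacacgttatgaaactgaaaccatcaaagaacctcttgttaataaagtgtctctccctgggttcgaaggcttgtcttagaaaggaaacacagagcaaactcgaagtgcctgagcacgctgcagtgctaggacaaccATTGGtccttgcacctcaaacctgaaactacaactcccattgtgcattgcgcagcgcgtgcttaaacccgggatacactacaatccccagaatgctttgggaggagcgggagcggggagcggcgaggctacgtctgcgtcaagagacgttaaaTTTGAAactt
Bub1: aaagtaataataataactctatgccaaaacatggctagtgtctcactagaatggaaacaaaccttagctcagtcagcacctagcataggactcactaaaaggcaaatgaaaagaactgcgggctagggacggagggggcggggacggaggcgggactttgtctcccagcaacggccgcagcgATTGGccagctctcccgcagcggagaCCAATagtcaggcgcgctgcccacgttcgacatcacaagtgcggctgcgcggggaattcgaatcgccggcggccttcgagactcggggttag
Cenpf: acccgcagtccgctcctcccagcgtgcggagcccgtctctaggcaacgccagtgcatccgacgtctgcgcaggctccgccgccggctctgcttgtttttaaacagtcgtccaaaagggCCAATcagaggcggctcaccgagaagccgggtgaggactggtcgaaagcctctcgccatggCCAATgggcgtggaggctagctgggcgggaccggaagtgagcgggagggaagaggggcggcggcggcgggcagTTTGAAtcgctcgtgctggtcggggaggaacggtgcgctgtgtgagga
Birc5: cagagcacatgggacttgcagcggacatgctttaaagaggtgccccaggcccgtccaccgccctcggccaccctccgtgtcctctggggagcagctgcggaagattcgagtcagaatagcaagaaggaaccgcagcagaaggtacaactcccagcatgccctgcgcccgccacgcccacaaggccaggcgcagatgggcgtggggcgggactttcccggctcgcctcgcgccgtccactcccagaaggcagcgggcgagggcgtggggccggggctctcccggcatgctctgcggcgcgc
Mad2l1: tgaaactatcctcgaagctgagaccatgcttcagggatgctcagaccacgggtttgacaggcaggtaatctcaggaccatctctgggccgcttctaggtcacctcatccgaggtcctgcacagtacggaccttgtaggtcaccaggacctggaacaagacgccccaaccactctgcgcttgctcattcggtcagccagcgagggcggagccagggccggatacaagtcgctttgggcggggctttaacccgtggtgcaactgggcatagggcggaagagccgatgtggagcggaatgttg
Pttg1: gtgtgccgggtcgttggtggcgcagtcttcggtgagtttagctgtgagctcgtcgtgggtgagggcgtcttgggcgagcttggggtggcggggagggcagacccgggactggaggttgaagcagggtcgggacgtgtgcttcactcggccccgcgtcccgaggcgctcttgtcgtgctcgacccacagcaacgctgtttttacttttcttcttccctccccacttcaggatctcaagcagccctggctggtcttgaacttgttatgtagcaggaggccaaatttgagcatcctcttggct

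The windows of Bub1b and Cenpf each held 1 CHR core, and those of Bub1b, Bub1 and Cenpf held 1, 2 and 2 CCAAT boxes. The windows of Birc5, Mad2l1 and Pttg1 held neither motif in these letters. Of the 45 genes, 38 had windows, 41 in all. Ect2, Prc1 and Bub3 each had overlapping windows, so the same sites enter the numbers of matches below more than once. The CHR core occurred in 31 of the 41 windows (75.6%) and in 17.9% of all 32851 windows of the same length. CCAAT occurred in 32 (78.0%, against 37.4% of all windows), and both together in 28 (68.3%, against 6.95%). In 1 of the 41 windows a CHR match and a CCAAT match overlapped. The E-box CACGTG, the core site of MYC and MAX, occurred in 3 windows (7.32%), close to the 7.15% of all windows. Of the 39 CHR matches, 29 (74.4%) began within 50 bases of the start site, against 25.3% of the matches in all windows. CCAAT matches lay upstream in 70 of 73 cases, at a median position of -65. The windows hold 250 bases before the start and 50 after it, so most matches fall upstream wherever they lie. The positions of CCAAT over all windows were not computed. In windows of DNA replication genes the CHR core was found in 10% and CCAAT in 56.0%.

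**Figure D2:**
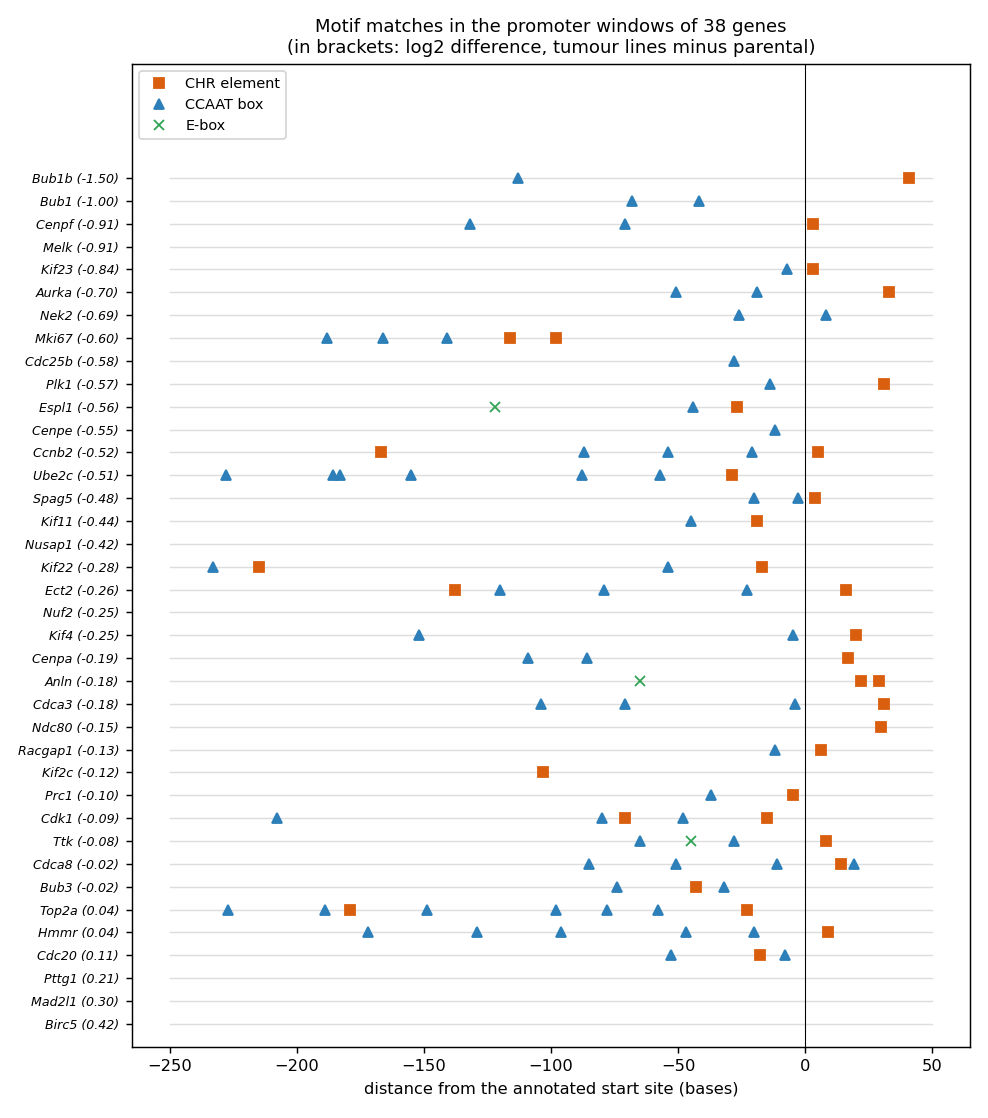
Positions of matches to the CHR core (squares), CCAAT (triangles) and the E-box (crosses) relative to the annotated start site in bases (horizontal axis), for 38 genes ordered by their log2 difference between tumour lines and parental arrays (in brackets). The first window by position is drawn where a gene has several, and the rows of Birc5, Mad2l1, Pttg1, Melk, Nuf2 and Nusap1 hold no match.

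Genes with and without the CHR core both included called falls, and the 3 rises were all among genes without it. Of these 3, Pttg1 has its window start 1482 bases inside its gene model. Mad2l1 and Pttg1 each kept their call in only 8 of 16 alternatives. Among all genes, 19.4% were called lower and 16.6% higher. Of the 28 genes with a CHR match 14 were called lower, 0 higher and 14 not at all, with a median difference of -0.22. Of the 10 without one, 5 were called lower, 3 higher and 2 not at all, with a median of -0.48. Melk and Nuf2 fell although their windows held neither motif, and Nusap1, which was not called, had neither as well. Only TTTGAA, on either strand, was searched for the CHR, so other spellings of the element were not counted. These counts describe letters in a window and were not tested.

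Among the kinases, cyclins and phosphatases of mitotic entry, 7 of 10 fell (70%, against 19.4% of all genes) and 0 rose (against 16.6%). Melk, which encodes a kinase abundant in dividing progenitor cells, read 11.16, 11.03 and 11.09 in parental arrays and 10.32, 10.04, 10.16 and 10.22 in tumour lines 3 to 6. The groups were far apart, and the fall was 0.91 on the log2 scale (SE 0.08, 1.88-fold, limma adjusted p = 6.62e-05). Cdc25c, a phosphatase that activates CDK1, read 9.47, 9.65 and 9.38 against 9.03, 8.81, 8.50 and 8.66, a difference of -0.75 (SE 0.13, adjusted p = 0.00219). Aurka, the Aurora kinase of centrosomes and spindle poles, read 10.96, 10.99 and 10.91 against 10.40, 10.31, 10.17 and 10.12. It fell by 0.70 (SE 0.08, 1.63-fold, adjusted p = 0.000313). Plk1, the Polo-like kinase needed for spindle assembly, read 11.13, 11.09 and 11.06 in parental arrays, and 10.65, 10.28, 10.59 and 10.54 in tumour lines (-0.57, SE 0.10, adjusted p = 0.00176). Line 4 was the lowest, and no tumour line reached a parental value. The centrosome kinase gene Nek2 (-0.69), the phosphatase gene Cdc25b (-0.58) and the cyclin gene Ccnb2 (-0.52) fell as well. The fall of Ccnb2 was not called when the parental group took in the array labelled GFP-transfected (adjusted p = 0.0669, range 0.00064 to 0.0669 over the alternatives), where Ccnb2 was itself low.

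The kinase at the centre of this step was not called. Cdk1 read 12.24, 12.18 and 12.13 in parental arrays and 12.26, 12.14, 11.97 and 12.01 in tumour lines, and the groups overlapped. The difference was -0.09, with a 95% interval of -0.29 to 0.11. Its partner Ccna2 differed by -0.19 (interval -0.41 to 0.02) with its brighter probe set and by -0.52 (adjusted p = 0.0112 over all probe sets) with the other. Foxm1, the transcription factor that activates many genes of G2 and M phase, read 8.88, 8.91 and 8.78 against 9.05, 8.72, 9.05 and 9.22. It was the dimmest of the 45 and was not called (0.15, interval -0.11 to 0.42). Line 4 was the only tumour line below the parental arrays, and without it Foxm1 was called higher (0.25, adjusted p = 0.0454, range 0.0454 to 0.724 over the alternatives).

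The spindle assembly checkpoint was split. Bub1b, which encodes BubR1, the subunit of the checkpoint complex that inhibits the anaphase promoting complex, read 11.46, 11.50 and 11.56 in parental arrays. It read 10.14, 10.05, 9.71 and 10.11 in tumour lines and 11.04 on the array labelled GFP-transfected. This was the largest change among the 45 genes, a fall of 1.5 on the log2 scale (SE 0.11, 2.83-fold, limma adjusted p = 2.18e-05). Bub1, the kinetochore kinase that recruits other checkpoint proteins, read 11.95, 11.95 and 11.67 against 10.89, 10.99, 10.58 and 10.94, a difference of -1.0 (SE 0.12, 2.0-fold, adjusted p = 0.000305). Line 5 was the lowest for both genes. By contrast Mad2l1, whose product MAD2 binds and restrains CDC20, read 12.02, 12.02 and 11.87 in parental arrays and 12.41, 12.39, 12.08 and 12.19 in tumour lines. It rose by 0.30 (SE 0.10, 1.23-fold, adjusted p = 0.0455), close to the threshold, and kept its call in 8 of 16 alternatives (range 0.017 to 0.156). The call ended without any one of the 3 parental arrays or tumour line 3, 4 or 6, with each array centred on its median, and with the pooled control. Bub3, the partner protein of BUB1 and BubR1, stood at 12.70 ± 0.03 and 12.68 ± 0.02, with an interval of -0.16 to 0.12 for the difference. Ttk, the MPS1 kinase at the head of the checkpoint, differed by -0.08 (interval -0.33 to 0.16).

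**Figure D3:**
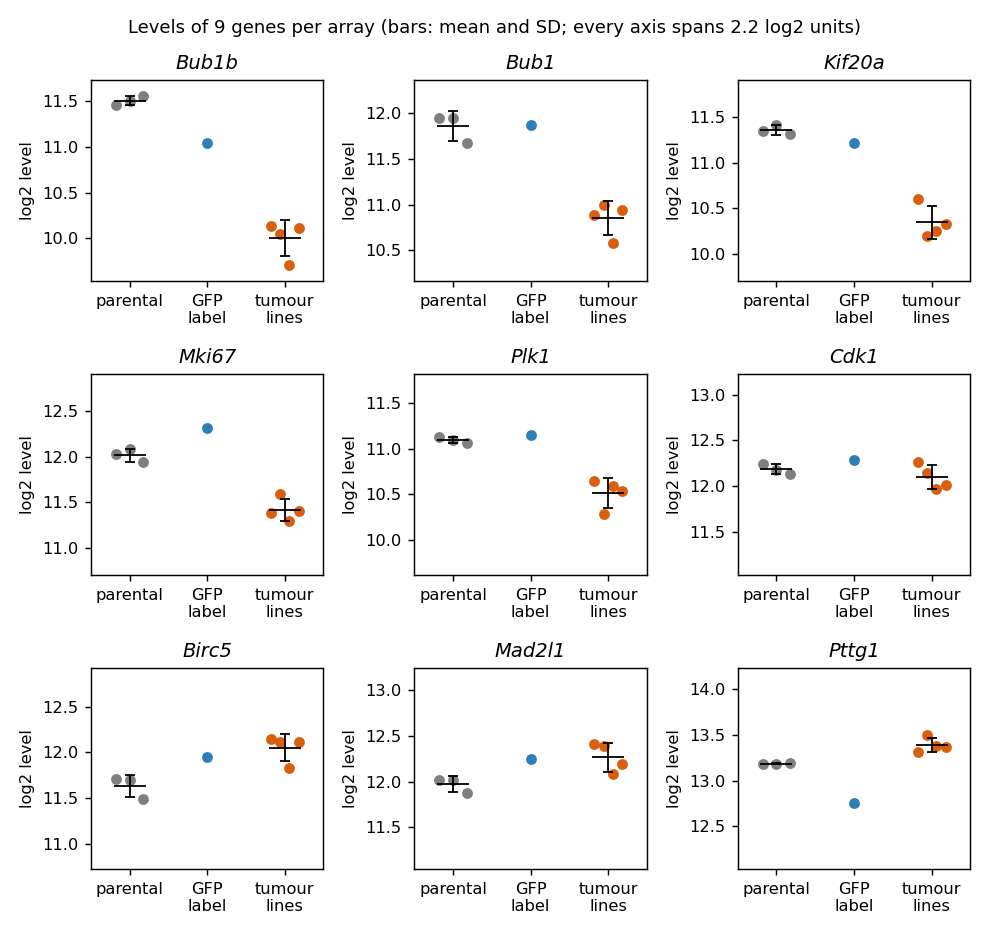
Log2 RMA level (vertical axes) of 9 genes on each array, with grey points for parental arrays, blue for the array labelled GFP-transfected and orange for tumour lines, and bars for mean and SD. Bub1b, Bub1, Kif20a, Mki67 and Plk1 are lower in all tumour lines, Cdk1 overlaps, and Birc5, Mad2l1 and Pttg1 are higher than in all parental arrays.

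The chromosomal passenger complex, in which Aurora B corrects faulty attachments and later guides cytokinesis, was split too. Its kinase gene Aurkb read 10.45, 10.34 and 10.37 in parental arrays and 10.10, 9.90, 10.06 and 9.99 in tumour lines (-0.37, SE 0.07, limma adjusted p = 0.00447). Its scaffold gene Incenp read 12.38, 12.40 and 12.36 against 12.02, 11.78, 11.61 and 11.97 (-0.53, SE 0.10, adjusted p = 0.00393). Both lay below all parental values in every tumour line. Birc5, which encodes survivin, the subunit that docks the complex on chromatin, went the other way. It read 11.71, 11.70 and 11.49 in parental arrays and 12.15, 12.11, 11.83 and 12.11 in tumour lines, a rise of 0.42 (SE 0.10, 1.33-fold, adjusted p = 0.012). Parental array 3 and tumour line 5 were the low ones of their groups. Without parental array 3 the rise was 0.34 and was not called (adjusted p = 0.0548), nor was it when the parental group took in the array labelled GFP-transfected (0.34, adjusted p = 0.0556, range 0.00279 to 0.0556). Cdca8, which encodes the remaining subunit, borealin, stood at 12.40 ± 0.02 and 12.38 ± 0.08.

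At the centromere and kinetochore 3 of 6 genes fell (50%, against 19.4% of all genes) and 0 rose (against 16.6%). Cenpf, a large kinetochore protein gene, read 10.52, 10.50 and 10.36 in parental arrays and 9.37, 9.89, 9.33 and 9.59 in tumour lines (-0.91, SE 0.14, 1.88-fold, limma adjusted p = 0.000961). Spag5, which encodes the spindle protein astrin, read 10.18, 10.21 and 10.14 against 9.84, 9.69, 9.67 and 9.59, a difference of -0.48 (SE 0.08, adjusted p = 0.00141). Nuf2, a subunit of the NDC80 complex that grips microtubules, read 9.66, 9.58 and 9.63 against 9.42, 9.49, 9.33 and 9.26. Its fall of 0.25 (SE 0.07, adjusted p = 0.0302) was called in 10 of 16 alternatives (range 0.0142 to 0.108). The calls ended when any one of the 3 parental arrays or tumour line 5 or 6 was left out, and when arrays were normalized again. Its partner Ndc80 differed by -0.15 (interval -0.46 to 0.17). The kinetochore motor gene Cenpe had the largest SD over tumour lines of the 45 genes. It read 10.87, 10.73 and 10.74 in parental arrays and 10.31, 10.76, 9.79 and 10.08 in tumour lines, with line 4 within the parental range. The difference of -0.55 (SE 0.20) was not called (adjusted p = 0.0633), but it was called lower in 5 of 16 alternatives (range 0.00401 to 0.18). Without line 4 it was -0.72 (adjusted p = 0.00401). The others were the mean of its probe sets, the filter on dim genes, array weights and the pooled control. Cenpa, the centromeric histone H3 variant gene, differed by -0.19 (interval -0.48 to 0.10), with line 3 apart at 12.43.

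Of the 10 genes for kinesins and other spindle proteins 6 fell (60%, against 19.4% of all genes) and 0 rose (against 16.6%). Kif20a, a kinesin of the central spindle, read 11.34, 11.41 and 11.31 in parental arrays and 10.60, 10.20, 10.25 and 10.33 in tumour lines. It fell by 1.01 (SE 0.10, 2.01-fold, limma adjusted p = 0.000112). Kif23, the motor of the centralspindlin complex, read 10.66, 10.63 and 10.54 against 9.85, 9.68, 9.61 and 9.97 (-0.84, SE 0.10, adjusted p = 0.000271). Tpx2, which activates Aurora A and nucleates spindle microtubules, read 11.11, 11.07 and 10.98 against 10.40, 10.38, 10.06 and 10.27 (-0.78, SE 0.10, adjusted p = 0.00034). In none of these genes did a tumour line reach a parental value. Kif11, the bipolar motor that separates the spindle poles, fell by 0.44 (SE 0.14, adjusted p = 0.0352), and the chromosome-arm motor genes Kif22 and Kif4 by 0.28 and 0.25. The call of Kif11 ended without any one of the 3 parental arrays or without tumour line 3 (range 0.00361 to 0.104). That of Kif4 ended without parental array 2 or 3 or tumour line 5 and with repeated normalization (range 0.0168 to 0.102). Nusap1, a microtubule bundling protein gene, read 11.25, 11.19 and 11.17 in parental arrays and varied among the tumour lines, at 10.58, 11.13, 10.40 and 11.02. All 4 lay below the parental arrays, yet the difference of -0.42 (SE 0.17) was not called (adjusted p = 0.0941). Without tumour line 4 it was -0.54 and was called (adjusted p = 0.0267, range 0.0267 to 0.798), and it was also called with array weights. The microtubule depolymerase gene Kif2c (-0.12), the bundling protein gene Prc1 (-0.10) and the hyaluronan receptor gene Hmmr (0.04) were not called.

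The genes that bring about anaphase went both ways. Ube2c, the ubiquitin-conjugating enzyme of the anaphase promoting complex, read 12.85, 12.92 and 12.85 in parental arrays and 12.34, 12.52, 12.26 and 12.32 in tumour lines (-0.51, SE 0.08, 1.43-fold, limma adjusted p = 0.00112). Espl1, which encodes separase, the protease that cuts cohesin, read 10.19, 10.19 and 10.12 against 9.77, 9.37, 9.64 and 9.67 (-0.56, SE 0.10, adjusted p = 0.0023). Its inhibitor securin is encoded by Pttg1, the brightest of the 45 genes. Pttg1 read 13.18, 13.18 and 13.19 in parental arrays, 13.31, 13.50, 13.38 and 13.37 in tumour lines, and 12.76 on the array labelled GFP-transfected. It rose by 0.21 (SE 0.07, 1.15-fold, adjusted p = 0.0449), which kept its call in 8 of 16 alternatives (range 0.0094 to 0.12). The call ended without any one of the 3 parental arrays or tumour line 4, 5 or 6, with centring, and with the pooled control. Cdc20, the activator of the complex that MAD2 and BubR1 hold back, read 12.86, 12.80 and 12.85 against 12.88, 12.89, 13.06 and 12.95. All tumour lines were higher, but by little, and the gene was not called (0.11, interval -0.05 to 0.27). Cdca3, whose product helps degrade the CDK1 inhibitor WEE1, differed by -0.18 (interval -0.39 to 0.02).

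In cytokinesis, Ect2, the exchange factor that activates RhoA at the division plane, read 11.31, 11.38 and 11.37 in parental arrays and 11.11, 11.13, 10.98 and 11.14 in tumour lines. It fell by 0.26 (SE 0.07, 1.20-fold, limma adjusted p = 0.0167), a call that ended without parental array 2 (0.0613) or 3 (0.0582). Anln, the contractile ring scaffold anillin, read 11.79, 11.77 and 11.77 against 11.31, 11.42, 11.66 and 11.998, so that tumour line 6 lay above the parental arrays and the other lines below. It was not called (-0.18, interval -0.53 to 0.17), and without line 6 it was -0.32 (adjusted p = 0.0476, range 0.0476 to 0.698). Racgap1, the partner of Kif23 in centralspindlin, differed by -0.13 with its brightest probe set and by -0.39 (adjusted p = 0.0031) with the next.

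The most used proliferation markers differed from each other. Mki67, which encodes the Ki-67 protein that coats mitotic chromosomes, read 12.03, 12.08 and 11.94 in parental arrays and 11.38, 11.59, 11.30 and 11.41 in tumour lines. It fell by 0.60 (SE 0.09, 1.51-fold, limma adjusted p = 0.000797). Top2a, the topoisomerase that disentangles sister chromatids, read 12.80, 12.83 and 12.78 against 12.80, 12.86, 12.89 and 12.82. The groups overlapped, and the difference was 0.04 (interval -0.10 to 0.18). The Top2a probe set at 8.99 differed by 0.36, just short of a call (limma adjusted p = 0.0503 over all probe sets). The one at 5.15 differed by -0.04.

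Many of the 45 genes have several probe sets, which bind different stretches of the transcript. Of the 105 probe sets 45 were called lower, 3 higher and 57 not at all, when all 34945 were tested together (18.4% lower and 15.5% higher among all). In 0 of the 30 genes with more than 1 probe set were there calls in opposite directions. For 13 of the 24 genes that fell there was more than 1 probe set, and all of them were lower for 6. Another 5 genes, Ccna2, Cenpa, Cenpe, Kif2c and Racgap1, were called lower with a dimmer probe set though not with the brightest. For Kif22 the brightest probe set, at 12.68, differed by -0.28, and those at 10.50 and 9.42 by -0.81 and -0.84. For Bub1b the probe sets at 10.70 and 10.47 differed by -1.5 and -1.36, and the one at 6.50 by -0.05. Among the rises, Pttg1 was called with its probe set at 11.22 (0.35, adjusted p = 0.0104) and missed the threshold with the brightest here (0.21, adjusted p = 0.0529).

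**Figure D4:**
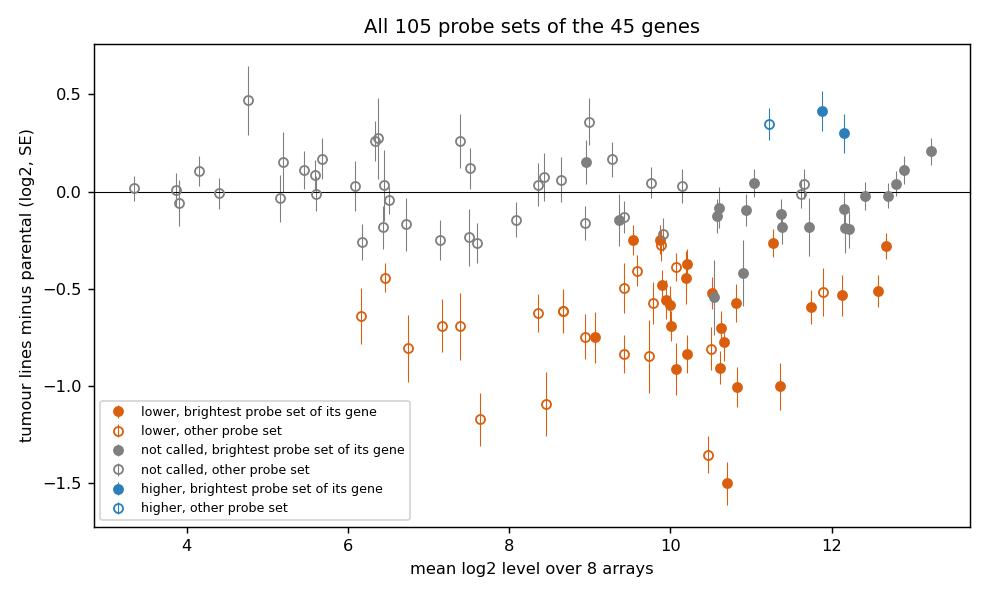
Log2 difference between tumour lines and parental arrays with its SE (vertical axis) against the mean log2 level over 8 arrays (horizontal axis) for the 105 probe sets of the 45 genes, filled where the probe set is the brightest of its gene. Called falls, in orange, number 45 and called rises, in blue, number 3.

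On the array labelled GFP-transfected the same genes were not low as a group. Of the 45, limma called 2 higher and 2 lower than in parental arrays, where 7.43% of all genes were called higher and 8.66% lower. Ect2 (0.51, SE 0.10, adjusted p = 0.0129) and Nek2 (0.42, SE 0.11, adjusted p = 0.0364) were higher there, and Ccnb2 (-0.55, SE 0.12, adjusted p = 0.0172) and Pttg1 (-0.42, SE 0.10, adjusted p = 0.027) lower. The array lay above every parental array for 25 genes, against 35.9% of all genes, and below every one for 15, against 35.3%. The median difference was 0.06. With 1 array, its spread was assumed to be that of the other groups. The count of 4 calls fell to 1 without parental array 1 or 2 and to 2 without parental array 3.

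Set against that array, the tumour lines were again lower for many of these genes. Limma called 19 of the 45 genes lower and 1, Pttg1, higher (0.63, SE 0.10, adjusted p = 0.00174), where 16.4% of all genes were called lower and 14.0% higher. All tumour lines lay below the array for 31 genes (68.9%, against 32.4% of all genes) and above it for 3, where 35.5% of all genes did. The largest differences were those of Cenpf (-1.42, SE 0.20), Nek2 (-1.12, SE 0.11), Bub1b (-1.03, SE 0.16), Bub1 (-1.02, SE 0.18) and Espl1 (-1.01, SE 0.14), with limma adjusted p-values of 0.0026 or lower. Mki67 differed by -0.90 (SE 0.13, adjusted p = 0.000868). Birc5 (0.10, SE 0.15) and Mad2l1 (0.02, SE 0.15) were not called, and on the array labelled GFP-transfected they read 11.95 and 12.25, within the range of the tumour lines. This comparison shares the tumour lines with the first, and that array with the one before it.

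Other genes of the same machinery, from lists that hold none of the 45, were measured for context. Of 72 further mitosis and spindle genes, 31 fell and 5 rose (43.1% and 6.94%, against 19.4% and 16.6% of all genes), with a median of -0.26. Psrc1, a microtubule-associated protein gene (-1.55, SE 0.07), the microtubule polymerase gene Ckap5 (-1.11, SE 0.14), the cyclin F gene Ccnf (-0.95, SE 0.11) and Bora, the activator of Aurora A and PLK1 (-0.90, SE 0.09), fell most. Against the majority, the histone kinase gene Haspin (0.68, SE 0.10) and the kinetochore gene Cenpk (0.46, SE 0.12) rose. Psrc1 was also lower (-1.09) and Haspin also higher (0.74) on the array labelled GFP-transfected than in parental arrays. Pooling that array with the parental ones ended the call of Haspin (adjusted p = 0.077, range 0.000631 to 0.077). The call of Cenpk ended without parental array 2 (0.065) or 3 (0.0856) and with the mean of its probe sets (0.278).

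Of 18 condensin and cohesin genes, which shape and hold together chromosomes, 9 fell and 1 rose (50% and 5.56%, against 19.4% and 16.6% of all genes), with a median of -0.21. The condensin subunit genes Ncapd2 (-0.84, SE 0.13) and Ncapg (-0.54, SE 0.09) and the cohesin gene Smc3 (-0.68, SE 0.14) fell, and the cohesin loader gene Nipbl rose by 0.55 (SE 0.13). The rise of Nipbl was not called without parental array 2 (0.0552) or 3 (0.0551) or with the pooled control (0.0703). Of 14 subunit genes of the anaphase promoting complex, 3 fell and 2 rose (21.4% and 14.3%), shares close to those of all genes, with a median of -0.01. Its platform gene Anapc1 fell by 1.16 (SE 0.08), as did the subunit gene Cdc23 by 0.66 (SE 0.12), while Anapc11, the catalytic RING subunit, rose by 0.40 (SE 0.09).

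Of 20 genes measured from a list of DREAM, MuvB and E2F transcription control, 8 fell and 3 rose in tumour lines (40% and 15%, against 19.4% and 16.6% of all genes). The list includes the kinase inhibitor gene Cdkn1a, which is among the 8 that fell. Of the 20 genes 9 were not called, and the median was -0.11. On the array labelled GFP-transfected 9 were called higher and 2 lower than in parental arrays, where 7.43% and 8.66% of all genes were, and the median was 0.35. Mybl2, the activator that joins MuvB in S phase, stood at 8.68 ± 0.02 in parental arrays, 9.43 on that array and 7.97 ± 0.16 in tumour lines (-0.71, SE 0.10, limma adjusted p = 0.000559). The E2F repressor gene E2f8 read 10.22, 11.16 and 9.36 in the same order (-0.85, SE 0.15). Cdkn1a, which encodes the kinase inhibitor p21, read 10.80 ± 0.06, 11.56 and 8.23 ± 0.13 (-2.57, SE 0.09). Lin54, the MuvB subunit that binds the CHR, rose by 0.45 (SE 0.06), and the E2F gene E2f2 by 0.49 (SE 0.12). Both were also called higher on the array labelled GFP-transfected than in parental arrays (0.37 and 0.84, limma adjusted p = 0.0358 and 0.0186). Between tumour lines and that array neither gene was called.

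Genes of DNA replication had a median difference near 0. Of 50 measured, 8 fell and 6 rose (16% and 12%, below the 19.4% and 16.6% of all genes), and the median was -0.02. The origin recognition gene Orc6 rose by 2.06 (SE 0.09), the licensing factor gene Cdc6 by 0.71 (SE 0.09) and Gins3 of the replicative helicase by 0.71 (SE 0.09), whereas Orc3 fell by 0.89 (SE 0.08). The list medians per tumour line were 0.11, -0.02, -0.10 and -0.01, around the parental values of -0.02 to 0.02. The difference between the lists was not tested.

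**Figure D5:**
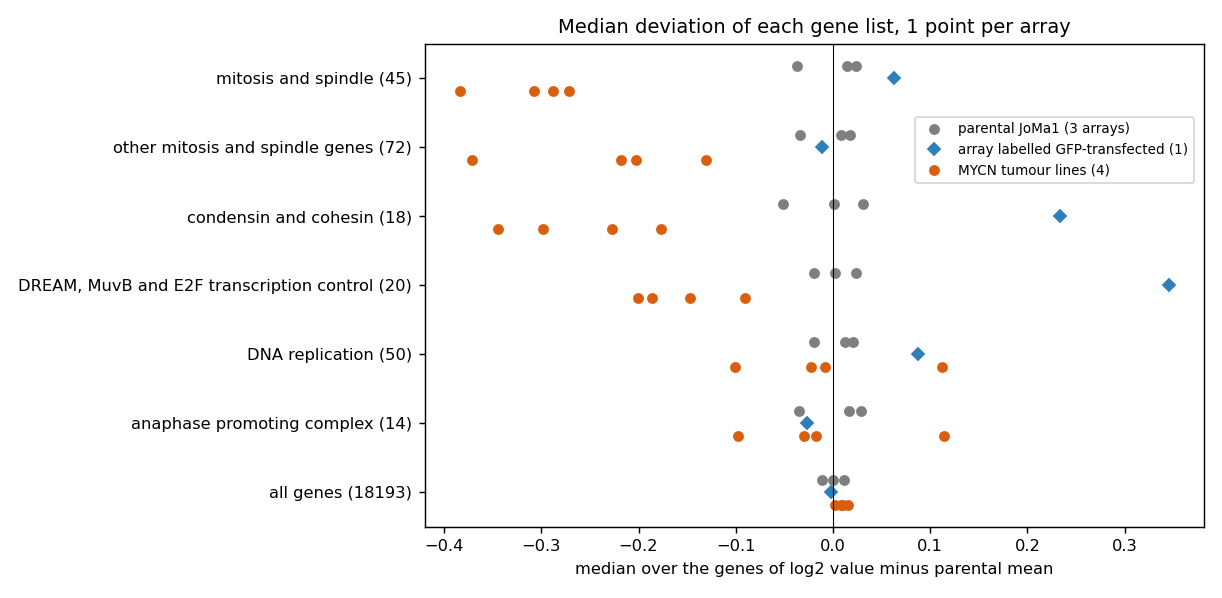
Median over the genes of a list of the log2 value minus the parental mean (horizontal axis), with 1 point per array, for the 45 mitosis and spindle genes, 5 related lists and all genes (rows). The tumour lines lie at -0.38 to -0.27 for the 45 genes, and at -0.10 to 0.11 for DNA replication.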

How the data were processed

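RNA of 8 cell samples was hybridised to 1 Affymetrix array each. The deposited values are log2 levels, 1 for each probe set on an array. RMA and Partek are the tools listed, per the submitters' processing notes, with no version. RMA normalizes arrays to one distribution and compresses the difference of dim and of very bright probes, so levels are relative to the whole array. No source used here names a genome build. Of 45101 probe sets, 64 controls, 932 with several symbols and 9160 with none in the platform annotation were left out, and 0 symbols changed through RefSeq (GRCm38.p6), which held 34741 of the gene IDs. Each of 18193 genes took its probe set of highest mean, which for 12 of the 45 genes carried the suffix _x_at or _s_at, whose probes may match other transcripts.

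Groups were compared with limma 3.58.1 (lmFit, eBayes) in R 4.3.3, fitted to all 8 arrays with the 3 groups as coefficients, two-sided, with Benjamini-Hochberg adjustment over all genes and a threshold of 0.05. Errors of differences are standard errors, and intervals are 95% intervals of limma's moderated statistic, which cover array spread only. The script was tested on simulated data. Per-array values are given for up to 3 called genes of each role with the largest change, every called rise, the 3 most variable over tumour lines, the 3 brightest, and Mki67, Top2a, Cdk1, Plk1 and Foxm1. From each other list up to 4 called genes of largest change, and up to 2 against its majority, could be named. The genes and lists were chosen with earlier results of these data known. Of the other listed genes, 10 had no probe set used and were not analysed here. Lists are described by counts and medians, with no set test. Motifs were searched as exact letters with Python 3.11.15, and RefSeq promoter entries were matched by symbol. Number of arrays limits the precision.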

Additional observations from a re-analysis of the deposited data

Results flagged for a closer look

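For 5 of the 45 genes 1 tumour line stood apart from the other 3 by Dixon's test for a group of 4. Tumour line 5 read 11.83 for Birc5, where the others read 12.11 to 12.15, and 10.98 for Ect2, where they read 11.11 to 11.14. Tumour line 3 read 12.43 for Cenpa (others 11.91 to 11.99) and 11.54 for Cdca3 (others 11.24 to 11.29). Tumour line 6 read 11.04 for Prc1 (others 10.81 to 10.82). Chance alone marks about 1 in 20 such groups. Without line 3 Cenpa and Cdca3 were called lower (limma adjusted p = 0.0112 and 0.0241).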

How the results depend on the processing

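The 16 alternatives changed the probe set rule, the filter on dim genes, the variance prior, array weights, the scaling, the use of the array labelled GFP-transfected, or left out 1 parental array or tumour line. The 24 falls numbered 20 to 26 throughout, and 19 of the 24 genes were called lower in every alternative that measured them. The exceptions were Ccnb2, Nuf2, Kif11, Kif4 and Ect2. The 3 rises became 1 with each array centred on its median, 0 when the parental group took in the array labelled GFP-transfected, and 0 to 2 with an array left out. Without parental array 3 there were 0, and without parental array 1 or 2 or tumour line 6 there was 1. The 4 genes called between the array labelled GFP-transfected and parental arrays became 2 with probe sets averaged within genes, 8 with array weights, and 1 to 6 with an array left out. The 20 genes called between tumour lines and that array numbered 17 to 23. The median difference of -0.28 was -0.35 without _x_at and _s_at probe sets and -0.33 to -0.26 in the others. Over the genes named by rule, 0 of the alternatives reversed a direction, 51 ended a call and 9 made one; the cause was not tested. No paired analysis was made, because array numbers come from the sample titles and define no pairs across groups. Scanner signals and detection calls were not used here, so signal over background is judged only from the trpnX probe sets, far below all 45 genes.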
